A study of Arabidopsis thaliana with 28 samples.

Results

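The 129 probe sets described here had their lowest level at 12 h in developing leaves of Arabidopsis thaliana. They were selected on the signals themselves. For each probe set of the array that is not a control, the signal plus 10 was put on the log2 scale and averaged over the replicates at 2, 4, 12, 24, 48 and 96 h. A probe set was taken if its mean at 12 h lay at least 1 log2 unit below the lowest of the 5 other means and its mean signal at 2 h was at least 50. Of 22746 probe sets 133 met these conditions, which is 0.585%. The rule leaves out 5 named genes, GI, LHCB4.2, PRL, CYP71B26 and AT3G21670, of which PRL did not meet the conditions, so 129 members remained. Of these, 46 were assigned to 1 named gene and stand for 45 genes, since AT5G62440 has 2 member probe sets. The other 83 had no gene name in the table used here. The level at 12 h chose the members, so it is given as a description with no test.

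Plants of the accession Col-0 were grown on compost under 10 h of light a day, and the series title gives their treatment as ambient CO2 and low light. Transcript levels were measured with biotin-labelled RNA on Affymetrix ATH1 arrays, on which a probe set is a group of short probes for 1 transcript or a few. Developing leaves, at insertions 19 to 21, were collected 2, 4, 12, 24, 48 and 96 h into the treatment, as 4 replicates a time, and 2 replicates of mature leaves were collected at 24 h. All 7 groups share the accession and the low-light treatment that the series title names. No untreated plants were analysed here, so a change between times cannot be assigned to low light. The treatment notes mark these groups AS, letters that the labels do not explain, and it is not stated whether mature and developing leaves were lit alike. The times 24, 48 and 96 h lie whole days apart and 12 h does not. No clock time is given in the labels, so time under treatment and time of day cannot be told apart. The labels do not say whether replicates came from separate plants, so p-values measure the spread between these samples, which may be technical. In RNA from whole leaves, fewer cells of a type and less RNA per cell cannot be told apart either.

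As background, many leaf transcripts rise and fall once a day under the joint control of light and the circadian clock. Genes for light responses, sugar transport, plastid proteins and protein synthesis are among those known to have daily rhythms in leaves. Young leaves also build ribosomes and expand their cells, activities that are known to be lower in full-grown leaves.

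The arrays were scaled alike, with median signals between 40.8 and 48. Markers of green leaf tissue were high in every group: RCA, which activates Rubisco, had a mean signal of 2858 ± 440 (SD, n = 4) at 2 h and 2594 ± 208 at 12 h, and LHCB4.1, an antenna protein, had 3185 ± 476 and 2615 ± 317. Both root markers with a probe set were low at 2 h, PYK10 at 17.9 ± 3.04 and EXPA7 at 23.3 ± 9.06. PYK10 was higher later, at 40.1 ± 20.5 at 48 h and 39.9 ± 15.9 at 96 h, while EXPA7 had 16.1 ± 3.91 and 16.8 ± 5.28. The markers listed for flowers and meristems had no named probe set, so these tissues could not be looked for. RNA quality was read from controls for the 3′ and 5′ ends of 3 transcripts. The log2 ratio of 3′ to 5′ signal for actin was 2.56 ± 0.505 at 2 h and 2.47 ± 0.543 at 4 h. In the 12 h group it was 1.76 ± 0.347 and in the 24 h group 1.85 ± 0.199, while that for GAPDH had group means from 0.265 to 0.534 and that for ubiquitin from 1.41 to 1.92. The part of the actin ratio in the results for 2, 4 and 12 h was not tested.

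The depth of the minimum at 12 h varied widely among members. The drop, meaning the lowest of the other 5 log2 means minus the mean at 12 h, had a median of 1.27, and it was at least 2 in 15 members, 2 of them named. Named members had a median drop of 1.198 and unnamed members one of 1.31. The deepest minimum belonged to an unnamed probe set whose signals were 36.87, 34.01, 21.96 and 9.22 in the 4 replicates at 12 h and lay between 1426 and 3999 in the other 20 developing replicates. Levels were spread as widely: the mean signal at 2 h ran from 53.5 to 3491 with a median of 269.5, and that at 12 h from 1.93 to 1539 with a median of 61.4. In 28 members, 5 of them named, the mean at 12 h was below a signal of 27.8, the 40th percentile of all probe sets, and no fold is given for these because it would depend on the 10 added to the signal. The heatmap of members by replicate shows these differences in the columns at 12 h.

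**Figure D1:**
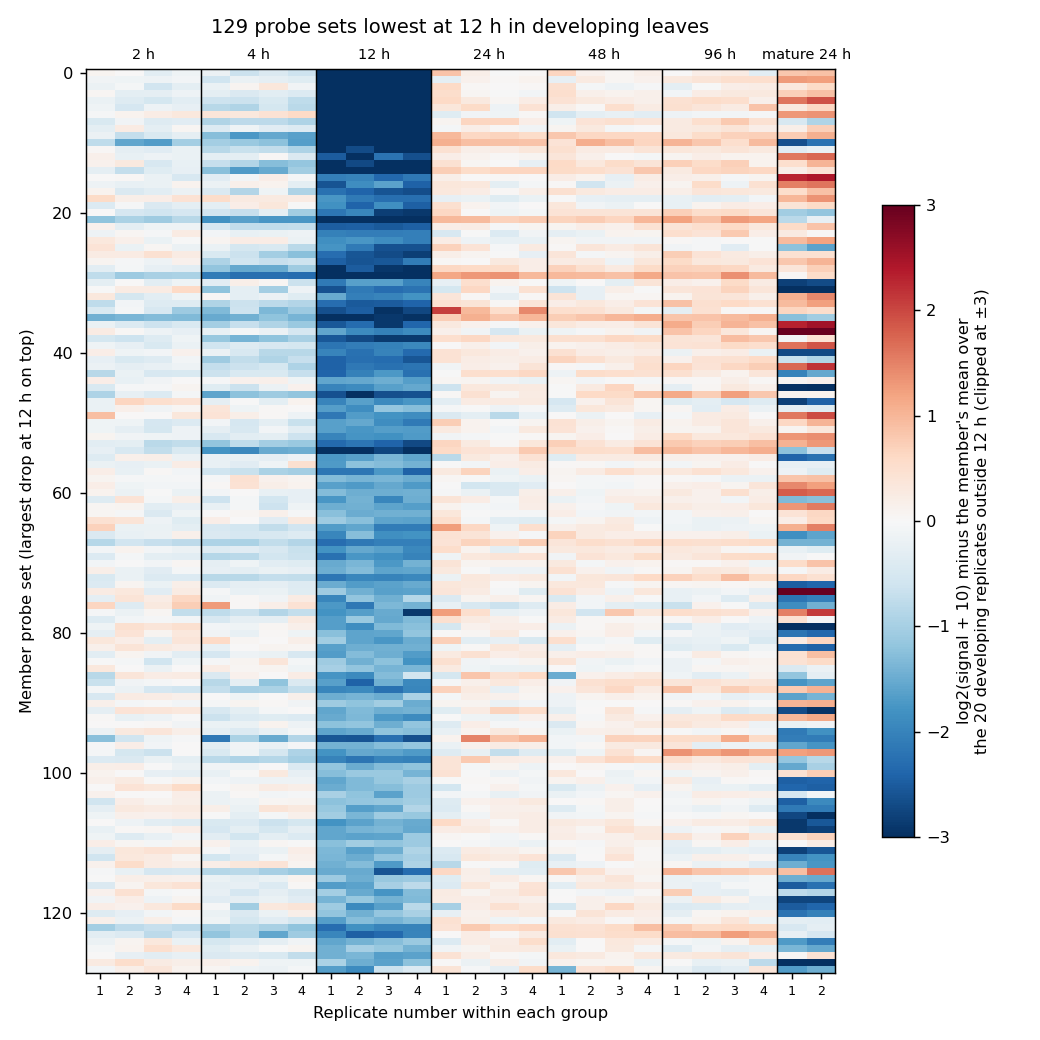
Each row is 1 of the 129 members, ordered by the size of the drop at 12 h, and each column is a replicate. Colour gives log2(signal + 10) minus the member's mean over the 20 developing replicates outside 12 h, clipped at 3 units either way. The 12 h columns are mostly blue, since the members were chosen for it. The mature columns are red in some rows and blue in others.

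The choice rests on group means, so the replicates were looked at one by one. In 126 of the 129 members, and 44 of the 46 named ones, all 4 replicates at 12 h lay below all 20 other developing replicates. This held for 6.43% of the probe sets tested, a share beside which the members' count says nothing, since they were chosen on the same values. The named exceptions were THI2.2, one of the thionins, small defence proteins, and AT3G58660, of the ribosomal protein L1 family. THI2.2 had 89.8 in replicate 4 at 12 h against 41.7 in replicate 1 at 48 h, and AT3G58660 had 145 in replicate 4 at 12 h against 122 in replicate 2 at 4 h. The rule was then applied with 1 replicate number left out at all 6 times. It found 128, 126, 127 and 132 probe sets without replicates 1, 2, 3 and 4. In the arrays left out, which took no part in that choice, 12 h was the lowest time in 126, 125, 127 and 130 of them. It was at least 1 log2 unit lower in 92, 101, 97 and 93, with a median drop of 1.27 to 1.29. The smallest drops were -0.798, -0.145, 0.233 and -0.541. All arrays left out took part in the full rule, which chose 121, 116, 120 and 122 of these probe sets. Nor were these counts made over all probe sets tested, so they describe the replicates and are no separate test of the minimum.

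AT5G12110, a subunit of translation elongation factor 1B, which recharges the factor that brings tRNAs to the ribosome, was among the named members with the deepest minima. Its signals were 20.74, 27.66, 11.16 and 10.09 at 12 h, against 214, 119, 108 and 174 at 2 h and 177, 163, 149 and 109 at 4 h. They were 775, 691, 688 and 673 in the 24 h group and 487, 796, 689 and 582 in the 48 h group. The 96 h replicates gave 752, 649, 528 and 719. The values at 2 and 4 h overlapped, and all those from 24 h on lay above them. In AT1G13650 the signals were 3.34, 13.6, 1.47 and 6.23 at 12 h and no lower than 54.6 at any other time. Both means at 12 h are among those too low for a fold, and their drops on the log2 scale likewise depend on the 10 added.

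AT3G44450, known as BIC2, encodes an inhibitor of the cryptochromes, the blue-light receptors of plants. Its signals at 12 h lay close together, at 33.2, 32.1, 31.9 and 32.7. Those of the 2 h group were 147, 173, 161 and 198, and those of the 4 h group 157, 140, 142 and 147. At 24 h the replicates had 116, 163, 123 and 152, at 48 h they had 135, 142, 180 and 175, and the 96 h group had 240, 222, 290 and 192. The lowest replicate outside 12 h, 116 at 24 h, was thus well above all 4 at 12 h, and the drop was 1.79, a 3.47-fold difference in signal plus 10.

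Among members known as enzymes, AT1G73480, an alpha/beta hydrolase, had signals of 38.2, 39.8, 28.9 and 34.9 at 12 h and between 133 and 222 in the other developing replicates, with a drop of 1.98. MSRB6, which repairs oxidised methionine, had 90.1, 107, 53.3 and 50.4 at 12 h and between 211 and 725 at the other times, with a drop of 1.82. GSTU20, a glutathione transferase, had 245, 216, 169 and 166 at 12 h and between 402 and 741 at the others, with a drop of 1.27. In none of these did a replicate at 12 h reach those of another time.

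Among members that move or carry small molecules, AT5G48490, a lipid-transfer protein related to DIR1, had the strongest signal at 2 h. It gave 275, 229, 272 and 215 at 12 h, against 1280, 1023, 1055 and 1219 in the 2 h group and 980, 799, 617 and 626 in the 4 h group. The signals were 1500, 1402, 1300 and 1230 in the 24 h group and 1540, 1311, 1264 and 1301 in the 48 h group. The 96 h replicates gave 989, 1248, 1306 and 971. The 4 h replicates lay below all those at 2 h and far above those at 12 h. TIL, a lipocalin induced by temperature, had 297, 277, 282 and 260 at 12 h and 641 or more at every other time, a drop of 1.301. AT1G19450, a sugar transporter of the ERD6-like family, had 102, 120, 115 and 123 at 12 h and 272 or more at the others, a drop of 1.24. AT5G02180, of an amino acid transporter family, and AT1G62510, of a family that holds lipid-transfer and seed storage proteins, were weaker. Their means at 12 h were 16.9 ± 1.47 and 20.2 ± 5.85, and their drops were 1.28 and 1.23.

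The other members among the 24 named ones with the deepest minima had drops from 1.195 to 1.795. AT3G01060 stood at 54.6 ± 1.41 at 12 h against 324 ± 41.8 at 2 h. AT3G28220, a protein with a TRAF-like domain, had 119 ± 37.9 against 614 ± 127, and AT5G62210, similar to an embryo-specific protein, 57.2 ± 9.44 against 396 ± 72.0. All 3 had drops above 1.6. AT3G09440, an HSP70 chaperone, stood at 152 ± 10.2 at 12 h, against 490 ± 22.4 at 2 h and 2411 ± 259 at 24 h. AT5G57345 and AT5G35970 had drops of 1.63 and 1.60, AT3G46630 1.51, and AT1G72500, similar to a trypsin inhibitor chain, 1.43. AT4G13010, related to a quinone oxidoreductase of the plastid envelope, had a drop of 1.39, AT1G76240 one of 1.31, AT3G26960 one of 1.25, and AT1G21500 one of 1.195. The first of the AT5G62440 probe sets, for DOMINO1, a protein needed for embryo growth, had a drop of 1.2.

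Close to the threshold the members did not stand apart from the probe sets that missed it. Inside it lay AT3G06680, of the ribosomal protein L29e family, with a drop of 1.00, AT2G34460 with 1.01, EXPB1, an expansin that loosens cell walls, with 1.02, and AT3G07090 with 1.02. Outside it lay AT5G02590 with 0.977, PPR596 with 0.964, AT5G03350 with 0.959 and POLA3 with 0.946. A minimum drop of 0.5 would give 544 probe sets and one of 1.5 would give 45. In the opposite direction, 74 probe sets were at least 1 log2 unit higher at 12 h than at any other time. For these the mean signal of at least 50 was required at 12 h and not at 2 h.

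Outside 12 h the members did not share 1 course. The range of the 5 other log2 means had a median of 0.618, against 0.345 over the 13647 probe sets strong enough to be tested. It was under 0.5 in 47 members and over 1 in 40. Several named members were nearly level outside 12 h. The range was 0.102 for AT5G19940, of the fibrillin family of plastid proteins, and 0.114 for AT3G46630. It was 0.116 for AT2G42220 and 0.144 for AT4G27700, both rhodanese-like proteins. At the other end it was 2.32 for AT3G09440, 2.204 for EXPB1, 2.18 for AT5G12110 and 1.87 for AT5G35970. The lowest of the 5 other means was at 4 h in 88 members, or 68.2%, against 29.3% of the probe sets tested. The highest was at 96 h in 54 members, or 41.9%, against 28.1%. The rule used these same 5 means, each of which had to lie above 12 h, and the 2 h signal. The ranges and shares therefore describe the members chosen and are no separate test of a low at 4 h or a high at 96 h.

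**Figure D2:**
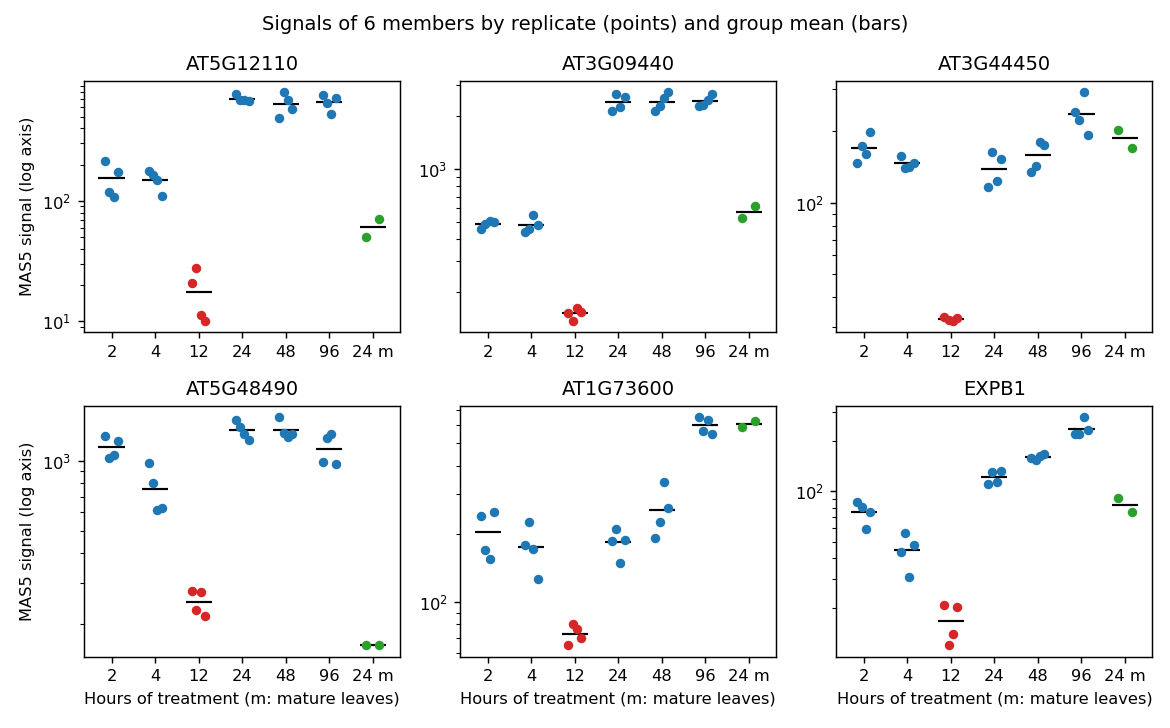
Signals of 6 members on log axes at each time in developing leaves (blue, with 12 h in red) and in mature leaves at 24 h (green), with a bar at the group mean. Points are replicates, 4 for each developing group and 2 for mature leaves, and the genes were picked after their values were seen. AT5G12110 and AT3G09440 were higher from 24 h on than at 2 and 4 h, AT1G73600 was highest at 96 h, and AT5G48490 was lower in mature leaves than in any developing sample.

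The 5 comparisons that do not hold 12 h were tested with limma, fitted over all 13647 probe sets that passed the filter on low values, and all 129 members passed it. Adjusted p-values are over all probe sets tested, and log2 changes are given ± SE. The developing means in these comparisons entered the rule as values that must lie above 12 h, which limits how far a member could fall. The 2 h mean, the baseline of 2 of the comparisons, also had to reach a signal of 50. Most of the probe sets tested were not chosen on these means. In the comparisons of developing times, the members' shares beside those over all tested are therefore a description. The mature arrays did not enter the rule. The comparisons of 4 h and 24 h share the 2 h arrays, and the others share the 24 h arrays, so they are not independent of each other.

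From 2 h to 4 h, 25 members fell and none rose. Over all probe sets tested 1.18% fell and 1.60% rose. The members' median log2 change was -0.25, against -0.01 over all tested, and in all 25 the replicates of both times did not overlap. Falls with no overlap made up 1.09% of all probe sets tested and 92.5% of all falls called. Of the 25 members, 9 were named and 16 were not, and 13 were called under every one of the 18 alternative settings tried. The actin ratio of 3′ to 5′ signal was 2.56 at 2 h and 2.47 at 4 h.

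EXPB1 had signals of 85.8, 81.1, 59.4 and 74.7 at 2 h and 43.2, 56.0, 30.8 and 47.6 at 4 h, so every replicate at 4 h lay below every one at 2 h. It fell by 0.66 ± 0.13 (adjusted p = 0.0037). AT1G76240 went from 230, 169, 204 and 187 to 127, 121, 99.1 and 92.5, and fell by 0.79 ± 0.15 (adjusted p = 0.0021). AT3G01060 fell by 0.57 ± 0.10 (adjusted p = 0.00078) and the lipid-transfer protein AT5G48490 by 0.61 ± 0.13 (adjusted p = 0.0050). CYTC-2, a cytochrome c of the mitochondrial electron transport chain, had 142, 140, 168 and 155 in the 2 h group and 106, 97.5, 102 and 89.7 in the 4 h group. It fell by 0.57 ± 0.12 (adjusted p = 0.0052). These 5 kept the call in every alternative. The calls of AT1G13650, AT4G13010, AT5G35970 and AT5G62210 also passed the threshold but were each lost in at least 1 of them. None of the 8 probe sets for ribosome production and translation and none of the 8 for enzymes were called. Over all probe sets tested only 1.18% fell and 1.60% rose, so these counts say little about the roles.

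From 2 h to 24 h, 35 members rose and 6 fell. Over all probe sets tested 5.85% rose and 6.29% fell, and the members' shares were 27.1% and 4.65%. The members' median change was 0.19, against 0.01 over all tested. All 6 falls were in unnamed members, and 3 were called without replicate 3 or without replicate 4 of the 2 h group. The actin ratio had a mean of 2.56 at 2 h and 1.85 at 24 h, and its part in these changes was not tested.

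The changes of a few named members were far larger than the median. AT3G09440, the HSP70 chaperone, had 459, 488, 509 and 504 at 2 h and 2138, 2686, 2248 and 2569 at 24 h, with no overlap. It rose by 2.27 ± 0.09, a 4.82-fold change (adjusted p = 1.4e-15), and its signals stayed between 2148 and 2732 at 48 h and between 2275 and 2672 at 96 h. AT5G12110 rose by 2.18 ± 0.20, a 4.53-fold change (adjusted p = 1.1e-08). AT3G07090 had 176, 207, 222 and 208 at 2 h and 487, 643, 555 and 575 at 24 h, and rose by 1.43 ± 0.11, a 2.69-fold change (adjusted p = 8.8e-10). Smaller rises, each also called in every alternative, were those of CYTC-2 by 0.74 ± 0.12, EXPB1 by 0.63 ± 0.13 and AT5G35970 by 0.55 ± 0.12. The sugar transporter AT1G19450 rose by 0.52 ± 0.12 and AT4G02850, of the PhzF enzyme family, by 0.48 ± 0.12. AT2G34460 passed the threshold with a change of 0.35 ± 0.11 but its replicates overlapped and 8 of 18 alternatives lost it. None of the 5 members grouped as plastid proteins was called, and that group was made after values were seen. Since 5.85% rose and 6.29% fell over all probe sets tested, that count says little about the role.

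From 24 h to 48 h no member passed the threshold, with limma as the only tool run, and 6 had an unadjusted p under 0.05. Over all probe sets tested, 0.0586% rose and 0.00733% fell. The members' changes ran from -0.96 to 0.43 with a median of 0.03. Between these times the actin ratio was 1.85 ± 0.199 and 2.05 ± 0.438.

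From 24 h to 96 h, 18 members rose and 4 fell. Over all probe sets tested 4.62% rose and 4.35% fell, and the members' shares were 14.0% and 3.10%. Their median change was 0.02, with a range from -1.19 to 1.67. The count rests partly on 1 sample: without replicate 3 of the 24 h group, 14 members were called, 12 of them higher.

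AT1G73600, a phosphoethanolamine N-methyltransferase, which makes the headgroup of phosphatidylcholine, had signals of 187, 211, 149 and 188 at 24 h. They were 192, 227, 338 and 260 in the 48 h group and 653, 567, 637 and 551 in the 96 h group, the last all above the rest. It rose by 1.67 ± 0.16 from 24 h to 96 h, a 3.18-fold change (adjusted p = 3.1e-07). EXPB1 had 111, 131, 113 and 132 at 24 h and 220, 221, 279 and 232 at 96 h and rose by 0.91 ± 0.13 (adjusted p = 6.8e-05). AT5G35970 rose by 0.81 ± 0.12 (adjusted p = 7.2e-05) and AT3G44450, the cryptochrome inhibitor, by 0.72 ± 0.12 (adjusted p = 0.00025). AT1G19450 rose by 0.53 ± 0.12 and AT4G12980 by 0.50 ± 0.11. In each of these 6 the replicates of both times did not overlap and every alternative kept the call. AT4G13010, of the plastid group, rose by 0.44 ± 0.09 (adjusted p = 0.0019). AT3G01060 and AT5G02180 also passed the threshold, and 6 and 7 of the 18 alternatives lost them. None of the 8 ribosome and translation probe sets was called, their changes lying between -0.30 and -0.09. With 4.62% rising and 4.35% falling over all probe sets tested, that count says little about the role. All 4 falls were in unnamed members, and 2 were called when replicate 1 or 2 of the 96 h group, or replicate 2 or 3 of the 24 h group, was left out.

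**Figure D3:**
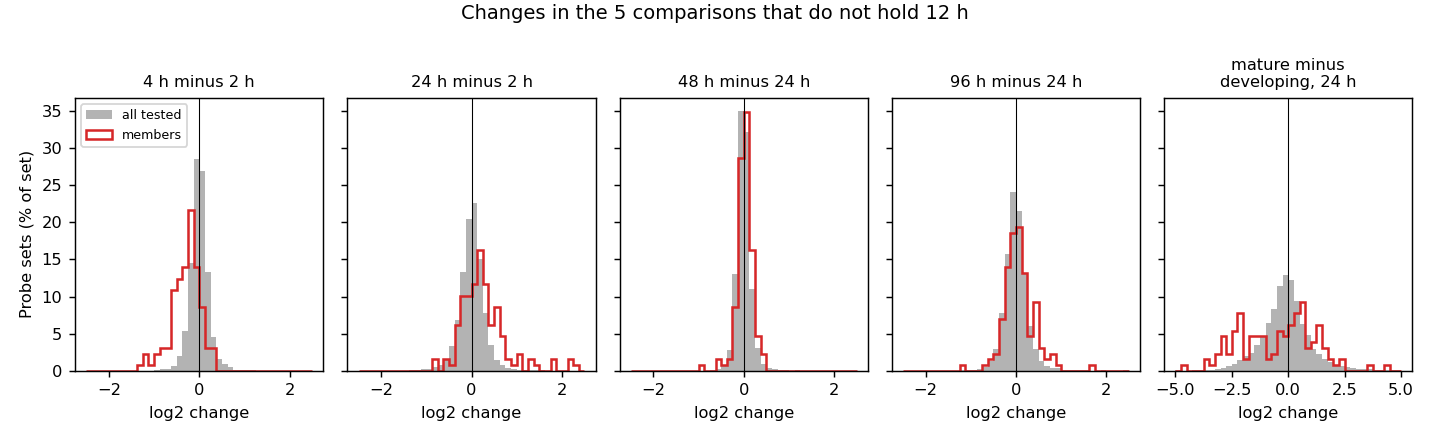
Distribution of log2 changes in the 5 comparisons, as percent of the probe sets in each set, for the 129 members (red line) and all 13647 probe sets tested (grey). From 2 h to 4 h the members lie left of the grey distribution, with a median of -0.25, and in mature against developing leaves they spread from -4.73 to 4.39.

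Between leaf ages at 24 h the members moved apart: 45 were higher in mature leaves and 62 lower. Over all probe sets tested 27.1% were higher and 37.5% lower, and of the members 34.9% and 48.1%. The members' median difference, mature minus developing, was -0.28, against -0.10 over all tested, and the values ran from -4.73 to 4.39. The highest belonged to an unnamed probe set with signals of 2424 ± 25.3 (SD, n = 2) in mature and 107 ± 21.6 (SD, n = 4) in developing leaves. Of the named members 14 were higher and 24 lower, and of the unnamed ones 31 and 38. In 98 of the 107 members called, the replicates of both leaf ages did not overlap, which is 91.6% of those called. Over all probe sets tested this share of the calls was 97.1%, and 62.7% of those tested were called with no overlap. The mature mean was below the lowest developing mean outside 12 h in 53 members, above the highest in 51, and below the member's own 12 h mean in 34. These counts were made for the members only, so they do not set the members apart from other probe sets. Only 2 mature samples were available.

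Members were grouped by known role for this comparison after their names and values had been seen, so the groups are a description. All 8 probe sets for ribosome production and translation were lower in mature leaves, beside 37.5% of all probe sets tested. AT5G62440, described above only as needed for embryo growth, is counted with both its probe sets. The 8 had a median difference of -2.38 and a range from -3.57 to -1.75, and all were called in each of the 16 alternatives. AT3G06680 had signals of 66.4 and 51.9 in mature leaves and 831, 730, 934 and 757 in developing leaves, with no overlap. It was lower by 11.9-fold (log2 difference -3.57 ± 0.17, adjusted p = 9.6e-16). AT5G12110, the elongation factor subunit, had 50.4 and 71.3 in mature leaves, below its signals at 2 h and above those at 12 h in developing leaves, and was lower than at 24 h by 10.2-fold (adjusted p = 2.6e-12). YAO, a nucleolar protein that processes ribosomal RNA, had 39.3 and 46.1 against 184, 240, 257 and 270 and was 4.66-fold lower (adjusted p = 4.8e-12).

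The remaining ones of that group were as follows. AT3G58660 was 5.30-fold lower (adjusted p = 1.0e-06). NRPA1, the largest subunit of RNA polymerase I, which transcribes ribosomal RNA genes, had 22.6 and 26.8 in mature leaves and 82.2, 153, 145 and 162 in developing leaves. AT3G12860, similar to the ribosomal RNA processing factor NOP56, had 8.26 and 12.0 against 68.4, 120, 102 and 127. Both mature means were below the signal of 27.8, so no fold is given. The same holds for the first AT5G62440 probe set, with 23.7 and 19.8 against 144, 149, 177 and 145. The second AT5G62440 probe set was 3.36-fold lower, at 55.9 and 47.2 against 157, 203, 221 and 209, so both probe sets of this gene gave the same direction.

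Of the 5 members for transport and lipid transfer, 4 were higher in mature leaves and 1 was lower. AT1G62510 had 750 and 1550 in mature leaves against 93.3, 85.1, 69.0 and 52.9 in developing leaves, a 13.0-fold difference (log2 difference 3.70 ± 0.23, adjusted p = 9.3e-14), although the mature samples themselves differed widely. AT5G02180 had 243 and 227 against 59.96, 52.4, 43.7 and 71.4 and was 3.70-fold higher. TIL was 1.90-fold higher and AT1G19450 1.304-fold higher, the latter with an adjusted p of 0.026 that was lost in 2 of the 16 alternatives. AT5G48490 went the other way, with 161 and 162 in mature leaves, below its 12 h signals, against 1230 or more in developing leaves at 24 h. It was 7.94-fold lower (adjusted p = 3.7e-15).

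Of the 8 enzymes, 2 were higher in mature leaves and 4 lower. AT1G73480 had 960 and 1063 against 215, 189, 192 and 190, a 4.95-fold difference (adjusted p = 2.7e-13), and AT1G73600 had 593 and 629, a 3.23-fold difference (adjusted p = 2.1e-08). The mature level of AT1G73600 at 24 h lay within its developing replicates at 96 h. AT4G02850 had 31.2 and 43.2 against 459, 342, 303 and 349 and was 7.89-fold lower. AT4G24830, argininosuccinate synthase of arginine synthesis, was 4.12-fold lower, MSRB6 2.33-fold lower and AT4G26790, a GDSL lipase, 2.12-fold lower. GSTU20 and the alpha/beta hydrolase AT1G18360 did not pass the threshold.

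Of the 5 plastid proteins, AT4G13010 was 2.63-fold higher in mature leaves (adjusted p = 1.3e-11) and AT5G19940 2.096-fold higher (adjusted p = 3.1e-09). AT4G38100, known as CURT1D, of the family that bends thylakoid membranes, had 43.7 and 45.2 against 279, 289, 287 and 259 and was 5.29-fold lower (adjusted p = 9.1e-15). The rhodanese-like AT2G42220 and AT4G27700 did not pass the threshold.

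Among the other named members AT5G62210 had 3.85 and 3.25 in mature leaves against 220, 496, 305 and 448 in developing leaves (adjusted p = 1.7e-14). Its mature mean is too low for a fold: the log2 difference was -4.73 with 10 added, -6.27 with 1 and -2.91 with 50. ACT11, an actin known best from reproductive tissue, had 28.9 and 29.0 against 297, 294, 291 and 280 and was 7.71-fold lower (adjusted p = 3.9e-17). AT3G09440 was 4.14-fold lower, at 532 and 615, above its developing signals of 459 to 509 at 2 h. On the other side, AT5G35970 had 1454 and 1669 against 350, 314, 280 and 312, a 4.86-fold difference (adjusted p = 2.2e-13), and AT5G57345 was 2.32-fold higher (adjusted p = 4.6e-06). For all of these the replicates of both leaf ages did not overlap.

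**Figure D4:**
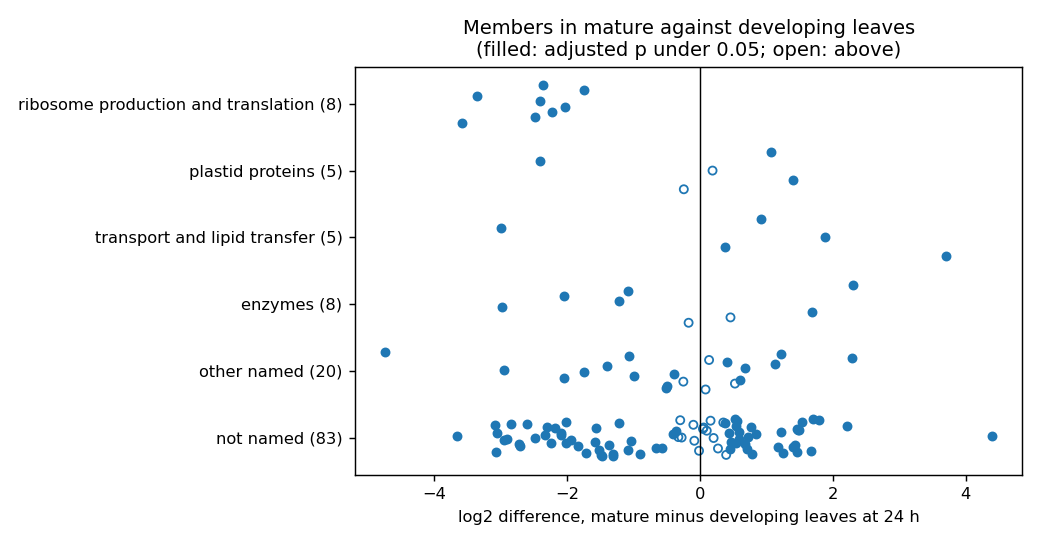
Log2 difference, mature minus developing leaves at 24 h, for each of the 129 members by role, with the number of probe sets in brackets. Filled points passed an adjusted p of 0.05 and open points did not, and height within a row has no meaning. The 8 ribosome and translation probe sets all lie at or below -1.75, while every other row has points on both sides of 0.

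None of the genes in the lists made for the clock, photosynthesis, pigment synthesis, Calvin cycle, nutrient assimilation, glucosinolates or tissue markers is a member once those named in the rule are left out, and most of their genes had no named probe set. Of 28 clock genes listed, 4 had one, and of 18 light-harvesting genes, 3. For comparison, 27.6% of all probe sets tested had their lowest developing mean at 12 h, with a median drop of -0.19. Of the list genes not left out by name, BCAT4, an enzyme of glucosinolate synthesis, came nearest to the rule with a drop of 0.794, followed by PSAN, a subunit of photosystem I, with 0.674. LHCB4.1 had a drop of 0.278 and RCA one of 0.129. Some other list genes were not lowest at 12 h and had negative drops. Among clock genes GI, left out by name, had a drop of 1.414, but CCL had -4.005, COR27 -5.102 and AT4G33980 -2.614. These last 3 had their highest developing mean at 12 h, with mean signals of 1955, 388 and 64.5. COR27 and AT4G33980 were weak at the other times, so the size of their drops depends on the value added to the signal. PORB had -1.378 and LHCB4.3 -1.301.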

How the data were processed

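The values deposited by the authors are 1 intensity per probe set and array, which the submitters' processing notes attribute to MAS5, with no version given. Each array was scaled to a 2% trimmed mean of 100.

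Of 28 arrays 27 were used. The pair of arrays sharing the title 24 h replicate 1 entered as the mean of their log2 values, as 1 replicate. An array titled 4 h replicate 1 but noted as ES was left in no group. Gene names came from the platform annotation, with all 46 named members matched by gene identifier in TAIR10.1. No named member has an s or x suffix, which marks probes shared between transcripts, and 6 unnamed ones do.

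Signals plus 10 were put on the log2 scale. Probe sets with a mean above the 40th percentile (13647) were fitted in 1 model of 7 groups with limma 3.58.1 (eBayes with trend) in R 4.3.3, with 19 residual degrees of freedom. Tests are two-sided, adjusted by Benjamini and Hochberg over all probe sets tested, with a threshold of 0.05. The steps were tested on simulated data.

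Members, lists and tests were chosen with earlier results of these data known. The text names the 24 named members with the largest drop, the 4 nearest the threshold on each side, and in each comparison up to 6 rises and 6 falls without overlap that kept their call in all alternatives. Other members were named, and role groups made, after values were seen. Same-numbered replicates deviated together in every pair for 24 h with 48 h (correlations from 0.130 to 0.619), the 1 comparison tested that holds such a pair of groups, and for 4 h with 12 h (0.147 to 0.388). In other comparisons tested some pairs did so: correlations ran from -0.003 to 0.316 for 2 h with 4 h. They ran from 0.006 to 0.378 for 2 h with 24 h and from -0.056 to 0.183 for 24 h with 96 h. Of 60 pairs of developing samples, 28 had a correlation over 0.1. A planned count of promoter motifs was not run, and no sequences are given. The number of arrays limits the precision.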

Additional observations from a re-analysis of the deposited data

Results flagged for a closer look

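In 276 groups of 4 replicates of named members, 18 held a replicate far from the other 3 by Dixon's test, and chance gives about 1 in 20. Of these, 13 were replicate 1. At 24 h, replicate 1 was the highest for AT1G73480 at 215.4, MSRB6 at 683.6, AT1G21500 at 1361 and AT2G42220 at 1257, and replicate 3 was the highest for AT5G62440 at 176.9. At 2 h, replicate 1 was the highest for MSRB6 at 442 and the lowest for THI2.2 at 72.3, and replicate 3 the lowest for AT1G62510 at 53.3. At 4 h, replicate 1 of AT3G01060 was the highest at 240.7 and replicate 4 of AT2G34460 the lowest at 243.4. At 12 h, replicate 1 of AT5G02180 was the highest at 19.09, still below every other developing replicate of that gene. At 48 h, replicate 1 was the highest for AT5G48490 at 1540 and the lowest for THI2.2 at 41.71 and AT3G12860 at 72.97. At 96 h, replicate 3 was the highest for AT5G62210 at 513.3 and AT3G46630 at 359.9, and replicate 1 was the highest for AT4G26790 at 190.9 and the lowest for AT2G42220 at 918.3.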

How the results depend on the processing

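The number of members found by the rule moved from 129 to 64 with 50 added to the signal in place of 10, to 45 with a minimum drop of 1.5 and to 544 with one of 0.5. By construction the larger added value shrinks differences of weak probe sets. With 1 added it was 161, and leaving out 1 replicate gave 123 to 137. Among the alternatives for the 5 comparisons, 1 moved the total of called members by more than 1.5 times, namely 14 in place of 22 for 96 h against 24 h without replicate 3 of the 24 h group. The few falls moved more: for 24 h against 2 h, 6 became 3 with no filter, with only the groups compared, and without replicate 3 or 4 at 2 h. For 96 h against 24 h, 4 became 8 with the replicate block and 2 without replicate 1 or 2 at 96 h or replicate 2 or 3 at 24 h. Leaving out 1 replicate gave totals of 19 to 26 for 4 h against 2 h (25 with all), 31 to 42 for 24 h against 2 h (41), 0 for 48 h against 24 h, 14 to 24 for 96 h against 24 h (22) and 92 to 107 for leaf age (107). Without 1 mature sample the lone one is assumed to vary like the other groups. A replicate block gave 34 members called for 4 h against 2 h and 44 for 24 h against 2 h, and changed no total by more than 1.5 times. For 48 h against 24 h, where same-numbered replicates deviated together in every pair, no member was called with the block either.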

Other observations

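The array titled 4 h replicate 1 whose note reads ES entered no group. For the 129 members its signal lay below all 4 replicates at 4 h in 55, within them in 65 and above them in 9. Its median difference from the 4 h mean was -0.13 on the log2 scale, against 0.01 over all probe sets tested. In 127 members it lay above the highest replicate at 12 h. The rule put each member's 4 h mean at least 1 log2 unit above its 12 h mean, so this count says little about the array. None of these counts was made over all probe sets tested, so they do not set the members apart. For AT5G62210 the array had a signal of 63.6, near the 44.1 to 66.4 seen at 12 h, and for AT1G19450 one of 217.

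The arrays both titled 24 h replicate 1 differed among the members by a median of -0.20, first minus second, with a median size of 0.24. For AT5G48490 they gave 1240 and 1812, and for AT1G73600 144 and 242.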
